A study of Mus musculus with 6 samples.

Results

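Of the 1042 mature miRNAs with a read in 1 or more brain libraries, 10 are arms of miR-335, miR-296, miR-298, miR-483 or miR-675, and the tables list another 13 miRNAs without any read. The 10 were chosen by these names, in every arm, with earlier results of these data known. They were picked because their 5 hairpins lie in or beside imprinted genes of the mouse. These are Mest for miR-335, the Gnas region for miR-296 and miR-298, Igf2 for miR-483 and H19 for miR-675. Small RNA was sequenced from the whole brains of 3 wild-type (WT) and 3 Adar2-/- mice, with 1 library for each brain. ADAR2 is an enzyme that converts adenosine to inosine in double-stranded RNA, and the comparison asks how the abundance of mature miRNAs differs in brains that lack it. All mice were females of the 129SV strain aged 5.5 months, siblings from crosses of heterozygous parents. Mice without ADAR2 die early after birth, and they were rescued by a Gria2 allele (Gria2 R/R) in which the edited codon is written into the gene. The WT mice carried the same allele on both chromosomes, so the genotypes differed in Adar2 and shared the altered Gria2. Adar2 mRNA was not analysed here, so the genotype labels were not checked from the counts. The host mRNAs were not analysed here either.

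Imprinted genes are transcribed from only the maternal or only the paternal chromosome in the tissues where the imprint acts, which need not be all tissues. Mest and Igf2 are paternally expressed and H19 is a maternally expressed noncoding RNA, whereas the Gnas region holds several overlapping transcripts, among them the paternal antisense RNA Nespas. A miRNA in such a gene is cut from a hairpin in the transcript by Drosha and then Dicer, which leaves a duplex of a 5p and a 3p arm. One arm is usually kept in Argonaute and the other is largely lost, and bases 2 to 8 of the kept arm, the seed, pair with target mRNAs. In the adult brain Igf2 is known mainly from the choroid plexus and the meninges, and H19 is known for a steep decline after birth. The counts do not tell from which parental chromosome a miRNA came.

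The mature sequences of both miR-335 arms and both miR-296 arms are shown because the comparisons below turn on these miRNAs. They are RefSeq sequences of the mouse (table on GRCm38.p6) and were located on NCBIM37 by matching them to that genome. Each is written from 5′ to 3′ with the seed in capitals.
miR-335-5p: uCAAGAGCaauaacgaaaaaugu
miR-335-3p: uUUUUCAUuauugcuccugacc
miR-296-5p: aGGGCCCCcccucaauccugu
miR-296-3p: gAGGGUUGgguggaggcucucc

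The miR-335 arms were poor in G and C, with a GC content of 30.4% in miR-335-5p and 36.4% in miR-335-3p, whereas the miR-296 arms held 66.7% in miR-296-5p and 68.2% in miR-296-3p. miR-335-5p held 12 adenosines, 3 of them in the seed, and miR-335-3p held 3 adenosines with 1 in the seed. The seed of miR-296-5p held 0 adenosines. None of the 10 RefSeq arms of these hairpins shared its seed with another of the 1674 distinct mature sequences in the table. The nearest other mature sequence differed from each at 5 to 8 positions without gaps, and the mapping asked for 90% identity. The tables name miR-298, miR-298*, miR-483 and miR-483* without saying which arm each is, so no sequence is tied to these names here.

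The Mir335 hairpin lies on the plus strand of chromosome 6 from 30691299 to 30691396 (NCBIM37), with miR-335-5p at 30691314 to 30691336 and miR-335-3p at 30691354 to 30691375. It falls in an intron of each of the 9 annotated Mest transcripts that span it, on the same strand as Mest (30673547 to 30698457). RNAfold gave its 98 bases a minimum free energy of −44.3 kcal/mol. Mir296 (chromosome 2, 174092548 to 174092626, with miR-296-5p at 174092594 to 174092614 and miR-296-3p at 174092559 to 174092580) and Mir298 (174093005 to 174093086) lie on the minus strand 378 bp apart and overlap no other annotated gene. They are 14.1 kb and 13.7 kb from Nespas, which is on the same strand, and 17.2 kb and 16.7 kb from Gnas on the other strand. Mir483 (chromosome 7, 149840829 to 149840901, minus strand) lies in an intron of each of the 8 Igf2 transcripts that span it. Mir675 (chromosome 7, 149762969 to 149763052, minus strand) lies within H19, and 77776 bp separate it from Mir483. The Mir675 hairpin is spanned by 3 H19 transcripts, and 2 H19 transcripts have an exon that overlaps it.

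The WT libraries held 12449633, 22779406 and 23471819 reads on miRNAs and the Adar2-/- libraries 18645810, 23585294 and 23935544, in the order of their replicate numbers. Levels are given as RPM, the reads of a miRNA for every 1000000 reads on all miRNAs of its library, and are not divided by length because a read covers a whole miRNA. Each library had its own lane, so lane and brain cannot be told apart. The deposited column names also hold an s-number that no WT library shared with an Adar2-/- library. Its meaning is not given, and it cannot be told apart from genotype. The column names of replicate 1 lack a further number that those of the other replicates hold. The neural miRNAs miR-9, miR-124, miR-128 and miR-138 summed to between 126795 and 172986 RPM in every library. The list also named miR-219, which was left out of the sum because its arms are listed as miR-219-5p and miR-219-3p. Of this sum, miR-124 gave a mean of 11709 RPM in WT and 17216 RPM in Adar2-/-, and miR-128 gave 504 and 875 RPM. Single members of this list moved more than the sum. The ratios of Adar2-/- to WT in replicates 1 to 3 were 0.78, 1.11 and 3.53 for miR-124. For miR-128 they were 0.66, 2.20 and 3.02. A list of miRNAs known from pituitary and pineal was also present in every library, namely miR-375, miR-7a, miR-182, miR-183 and miR-96. They summed to 109621 to 156385 RPM in WT and to 22799 to 188094 RPM in Adar2-/-. Members of the list may also come from brain cells, and their source was not tested. In whole brain, fewer cells of a type and less RNA per cell cannot be told apart.

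The 10 miRNAs covered about 4 orders of magnitude in these brains. miR-335-5p was the most abundant at a mean of 1513 RPM over the 6 libraries, followed by miR-335-3p at 72.2 RPM and miR-296-3p at 7.44 RPM. The ranges of these 3 did not overlap over the 6 libraries. Below them came miR-296-5p at 6.16, miR-298 at 3.31, miR-483 at 0.894, miR-483* at 0.849, miR-298* at 0.335, miR-675-3p at 0.102 and miR-675-5p at 0.0735 RPM, and every neighbouring pair from miR-296-3p downwards had overlapping ranges. miR-298 was above miR-483 within each of the 6 libraries, as was miR-483* above miR-298*, whereas miR-483 was above miR-483* in 3 of 6. The Igf2 and H19 miRNAs stayed below 2 RPM in every library, whereas miR-335-5p from Mest ranked between 41 and 90 among all miRNAs of a library.

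**Figure D1:**
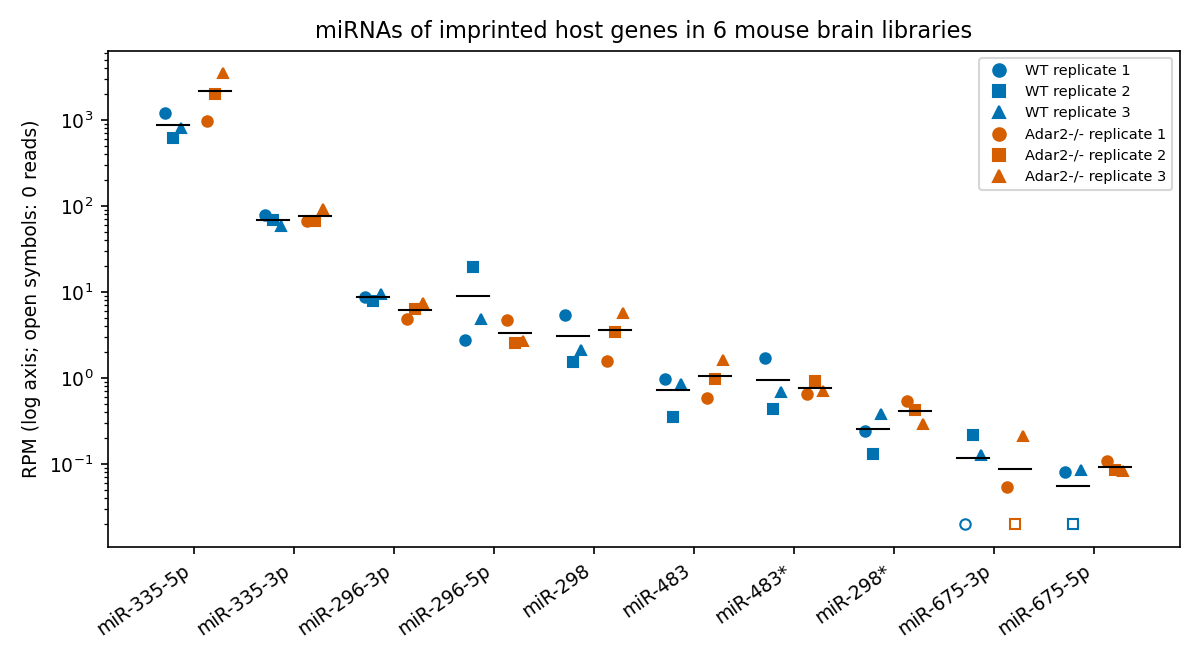
RPM of the 10 miRNAs (log axis) in the 3 WT (blue) and 3 Adar2-/- (orange) libraries, with the symbol giving the replicate number, horizontal lines the group means and open symbols libraries with 0 reads, drawn at an arbitrary height. Levels run from a mean of 1513 RPM for miR-335-5p to 0.0735 RPM for miR-675-5p, and the points of the genotypes overlap for miR-335-5p and miR-335-3p.

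The arms of miR-335 were compared first. miR-335-5p, an arm studied as a regulator of cell migration in cancer, had a higher mean in Adar2-/- brains, but this rested on 2 of the 3 brains. miR-335-3p, cut from the same precursor, had nearly the same mean in both genotypes. Neither arm passed the test across all miRNAs.

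miR-335-5p stood at 1203, 617 and 817 RPM in WT replicates 1 to 3 and at 962, 1987 and 3492 RPM in Adar2-/- replicates 1 to 3. The Adar2-/- replicates 2 and 3 were above all WT libraries and Adar2-/- replicate 1 lay inside the WT range, so the groups overlapped. The means were 879 ± 297.7 RPM (SD, n = 3) and 2147 ± 1273 RPM (SD, n = 3), a ratio of 2.44, with p = 0.2 by a two-sided exact permutation test and 0.5 after Benjamini-Hochberg adjustment over the 10 miRNAs. The smallest p that 3 libraries against 3 allow is 0.1. Counting error was small beside this spread, since the 95% exact interval of the lowest library ran from 607 to 627 RPM.

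miR-335-3p stood at 78.9, 69.0 and 58.2 RPM in the WT libraries and at 67.7, 66.1 and 93.0 RPM in the Adar2-/- libraries. Only Adar2-/- replicate 3 was above the WT range, and the other two lay inside it. The means were 68.7 ± 10.3 and 75.6 ± 15.1 RPM (SD, n = 3 each), a ratio of 1.10 (exact permutation test, p = 0.7, 0.875 after adjustment). The highest library exceeded the lowest by 1.60 times for miR-335-3p and by 5.66 times for miR-335-5p. Over the 6 libraries the log2 RPM of both arms had a Pearson r of 0.69, a description over libraries that share their totals.

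The edgeR quasi-likelihood test was fitted to the 399 miRNAs that had 100 or more reads in each of the 6 libraries. It put miR-335-5p at a log2 fold change of 1.29 (standard error 0.480, 95% interval 0.22 to 2.36) with an adjusted p of 0.988. miR-335-5p ranked second by log2 fold change and had an unadjusted p of 0.0227. For miR-335-3p the log2 fold change was 0.14 (standard error 0.316, interval −0.57 to 0.84, adjusted p = 0.989). Thus 0 of these 2 arms were called, as were 0% of the 399 miRNAs in either direction, with 9 higher and 4 lower at an unadjusted p under 0.05. DESeq2 called 1 of the 399, miR-497*, as lower, which is 0.251%, and gave miR-335-5p a log2 fold change of 1.19 with an adjusted p of 0.220.

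The call for miR-335-5p depended on replicate 1. Without replicate 1 of both genotypes its log2 fold change was 1.93 (edgeR, adjusted p = 0.0472), in a fit that called 4.51% of the 399 miRNAs as higher and had a median of 0.17 over them. Without Adar2-/- replicate 3 alone the ratio of mean RPM was 1.68, and without Adar2-/- replicate 1 alone it was 3.12. With TMM-scaled totals the genotypes narrowly ceased to overlap for miR-335-5p, with WT from 693 to 1093 and Adar2-/- from 1109 to 3179 scaled RPM. The exact permutation test gave p = 0.1, the smallest possible. How many of all miRNAs separate with this scaling was not computed. The fold change of miR-335-3p turned negative without Adar2-/- replicate 3, at −0.04.

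**Figure D2:**
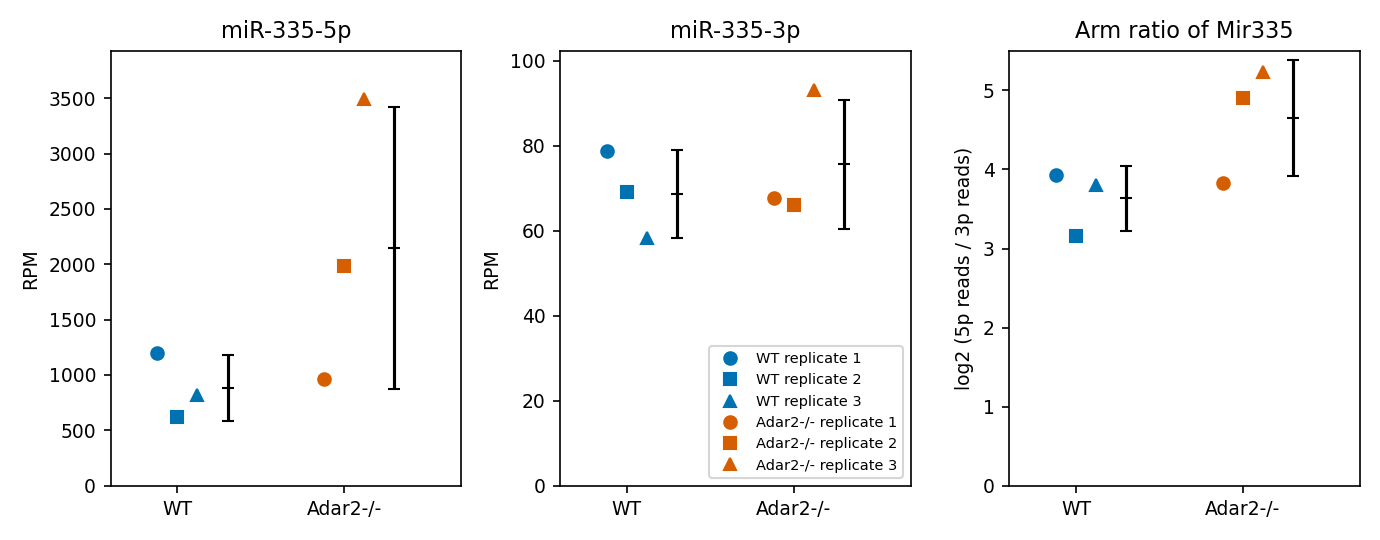
RPM of miR-335-5p (left), RPM of miR-335-3p (middle) and the log2 ratio of 5p to 3p reads (right) in 3 WT (blue) and 3 Adar2-/- (orange) libraries, with bars for the mean and SD beside each group. Adar2-/- replicates 2 and 3 are high in miR-335-5p and in the arm ratio, while miR-335-3p stays between 58.2 and 93.0 RPM.

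The ratio of the arms within a library needs no scaling between libraries, because both arms share 1 total. miR-335-5p outnumbered miR-335-3p by 15.2, 8.94 and 14.0 times in WT and by 14.2, 30.1 and 37.5 times in Adar2-/-. Adar2-/- replicates 2 and 3 had the highest ratios and Adar2-/- replicate 1 fell within the WT range. The 5p arm took 93.8%, 89.9% and 93.3% of the Mir335 reads in WT, and 93.4%, 96.8% and 97.4% in Adar2-/-, and each share has an exact 95% interval narrower than 1 percentage point.

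On the log2 scale, with 0.5 reads added to both counts, the ratio was 3.63 ± 0.41 (SD, n = 3) in WT and 4.66 ± 0.73 (SD, n = 3) in Adar2-/-. The ratios differed by 1.02 (p = 0.2 by an exact two-sided permutation test, 0.7 after adjustment over 5 hairpins). With 3 libraries against 3 this test cannot give a p under 0.1, so it could not pass the threshold of 0.05. With a library or a replicate number left out the difference ran from 0.66 without replicate 2 to 1.59 without replicate 1. Among 102 hairpins that had 100 or more reads on both arms in each library, 3 had a difference larger in size than Mir335 and the median size was 0.398. The genotypes did not overlap in the arm ratio for 10 of the 102 (9.8%), and Mir335 was not one of them.

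**Figure D3:**
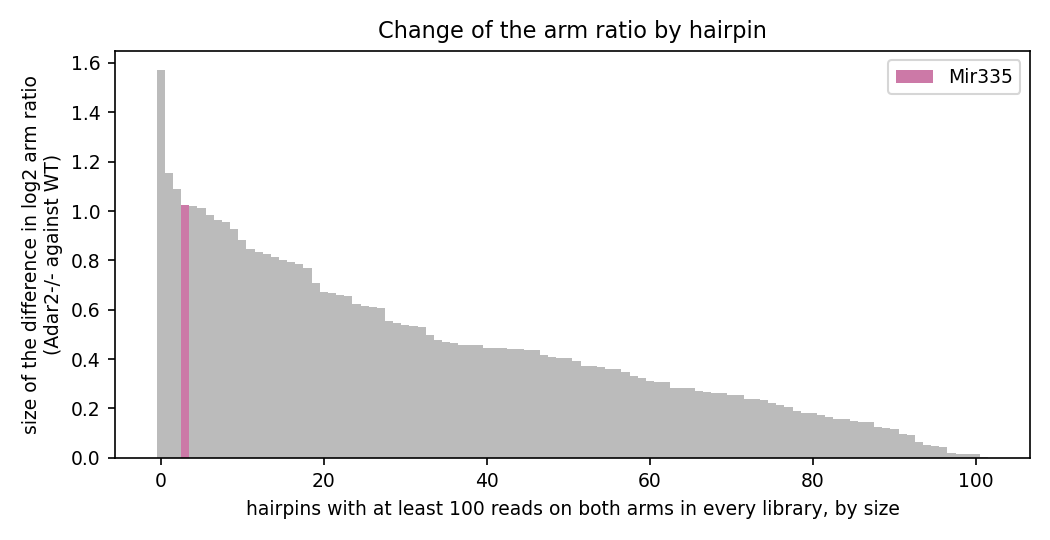
Size of the difference in mean log2 arm ratio between Adar2-/- and WT (vertical axis) for the 102 hairpins with at least 100 reads on both arms in every library, in order of size, with Mir335 in colour. Mir335 is at 1.02, with 3 hairpins above it, against a median of 0.398.

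**Figure D4:**
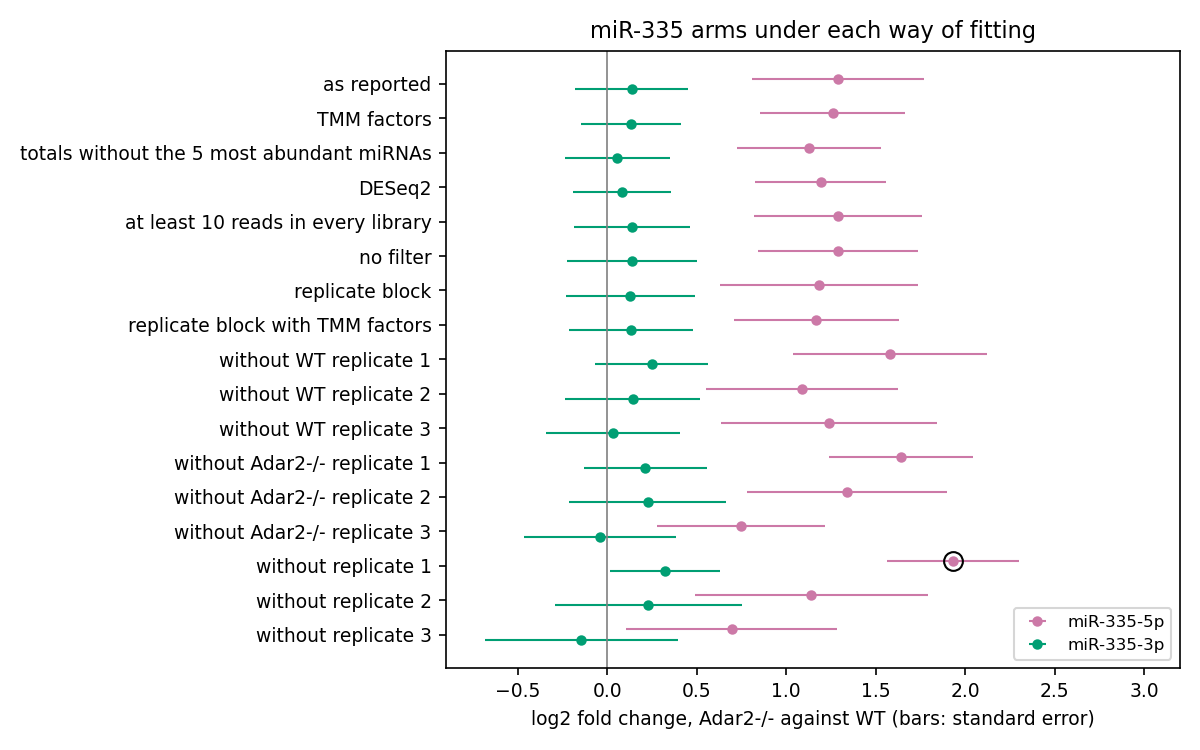
Log2 fold change of Adar2-/- against WT for miR-335-5p (pink) and miR-335-3p (green) under each way of fitting, with bars for the standard error and a ring where the adjusted p is under 0.05. miR-335-5p is above 0 in every fit, from 0.70 to 1.93, with a ring only in the fit without replicate 1, and miR-335-3p runs from −0.14 to 0.32.

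By the Pearson correlation of log2 RPM over the 6 libraries, the tested miRNAs most like miR-335-5p were miR-128 (r = 0.98), miR-29c (0.98), miR-342-3p (0.97), miR-872* (0.97) and let-7i (0.97). miR-29c averaged 1482 RPM in WT and 3267 in Adar2-/-, with a log2 fold change of 1.14 (standard error 0.458, edgeR, adjusted p = 0.988), and miR-128, a neuronal miRNA, averaged 504 and 875 RPM. The miRNAs most like miR-335-3p were others, namely miR-380-3p (0.92), miR-124 (0.91), miR-376a (0.87), miR-411* (0.85) and miR-22 (0.84). The libraries share totals and genotypes, and 6 points describe these likenesses without testing them.

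Summed marker lists also differed between the same libraries. The summed pituitary and pineal markers were at 119851, 156385 and 109621 RPM in the WT libraries and at 188094, 92129 and 22799 RPM in the Adar2-/- libraries, so that Adar2-/- replicates 2 and 3, the highest in miR-335-5p, had the lowest sums. The 5 epithelial markers, all of the miR-200 family, summed to 4783 to 6267 RPM in WT and to 9210, 5141 and 738 RPM in Adar2-/- replicates 1 to 3. Within WT the order did not hold, since replicate 1 had more miR-335-5p than replicate 3 and also the larger pituitary and pineal sum. The 5 blood markers, among them miR-451, summed to 1238 to 3525 RPM in WT and to 2117 to 2924 RPM in Adar2-/-. The vessel wall markers miR-126-3p, miR-143 and miR-145 summed to 49849 to 75100 RPM in WT and to 48138 to 58636 RPM in Adar2-/-. The part of these lists in the level of miR-335-5p was not tested.

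The arms of miR-296, from the hairpin upstream of Gnas, were compared next. Of the 6 miRNAs of this set with 10 or more reads in each library, miR-296-3p was the only one for which every Adar2-/- brain lay below every WT brain (as for 2.8% of all such miRNAs), and none lay wholly above. miR-296-5p also had a lower mean in Adar2-/-, but 1 WT library set that difference. Neither was called in a fit across all miRNAs.

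miR-296-3p stood at 8.67, 7.86 and 9.59 RPM in WT (108, 179 and 225 reads) and at 4.83, 6.36 and 7.35 RPM in Adar2-/- (90, 150 and 176 reads). All 3 Adar2-/- libraries lay below the lowest WT library. The means were 8.71 ± 0.864 and 6.18 ± 1.27 RPM (SD, n = 3 each), a ratio of 0.710, with p = 0.1 by the exact permutation test, the smallest possible, and 0.5 after adjustment over the 10 miRNAs. Of the 608 miRNAs that had 10 or more reads in each library, 17 had Adar2-/- libraries all below WT and another 17 all above, which is 2.8% each. The genotypes were also apart with TMM-scaled totals and with totals that left out the 5 most abundant miRNAs. For these scalings the share of all miRNAs was not computed.

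With 90 reads in 1 library, miR-296-3p missed the minimum of 100 reads. In the edgeR fit of the 608 miRNAs its log2 fold change was −0.49 (standard error 0.347, 95% interval −1.26 to 0.27, adjusted p = 0.982), and 0% of the 608 were called in either direction. The counting intervals of single libraries were wide at this depth and those of neighbouring WT and Adar2-/- libraries overlapped.

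miR-296-5p stood at 2.73, 19.4 and 4.90 RPM in WT (34, 441 and 115 reads) and at 4.72, 2.54 and 2.72 RPM in Adar2-/- (88, 60 and 65 reads). WT replicate 2 was far above the other 5 libraries, which lay between 2.54 and 4.90 RPM, and its exact 95% counting interval ran from 17.6 to 21.3 RPM. The means were 8.997 ± 9.04 and 3.33 ± 1.21 RPM (SD, n = 3 each; exact permutation test, p = 0.2, 0.5 after adjustment). Without WT replicate 2 the WT mean was 3.82 RPM, and the ratio moved from 0.370 to 0.872. In the edgeR fit of 608 miRNAs the log2 fold change was −1.45 (standard error 0.637, unadjusted p = 0.0439, adjusted p = 0.982), with WT replicate 2 included.

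The same library stood apart in the arm balance of Mir296. The 5p arm took 23.9%, 71.1% and 33.8% of the Mir296 reads in WT and 49.4%, 28.6% and 27.0% in Adar2-/-. The 3p arm was thus the more frequent in 5 of 6 libraries and the 5p arm in WT replicate 2, where miR-296-3p was at its usual level of 7.86 RPM. The difference in the log2 ratio of 5p to 3p was −0.49 (exact permutation test, p = 0.7), and it turned to 0.38 without WT replicate 2.

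**Figure D5:**
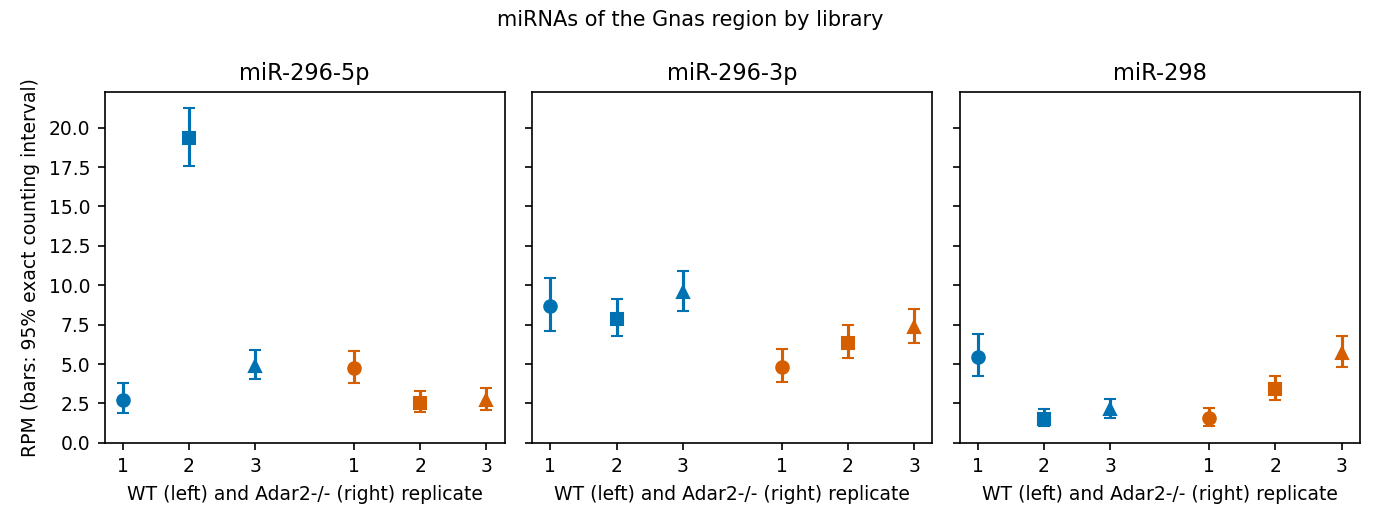
RPM of miR-296-5p (left), miR-296-3p (middle) and miR-298 (right) in WT (blue) and Adar2-/- (orange) replicates 1 to 3, with bars for the 95% exact interval of counting error. miR-296-5p stands at 19.4 RPM in WT replicate 2 and between 2.54 and 4.90 RPM elsewhere, miR-296-3p is below 7.86 RPM in every Adar2-/- library, and miR-298 overlaps between genotypes.

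miR-298, whose hairpin lies next to Mir296, stood at 5.46, 1.54 and 2.13 RPM in WT and at 1.56, 3.43 and 5.72 RPM in Adar2-/-. The highest and lowest libraries came from both genotypes. The means were 3.04 ± 2.12 and 3.57 ± 2.09 RPM (SD, n = 3 each; exact permutation test, p = 0.7), and the log2 fold change in the edgeR fit of 608 miRNAs was 0.27 (standard error 0.561, adjusted p = 0.982).

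miR-296-3p exceeded miR-298 by 1.59, 5.11 and 4.50 times in WT and by 3.10, 1.85 and 1.28 times in Adar2-/-, so the neighbouring hairpins did not keep 1 ratio between brains of a genotype. On the log2 scale this ratio differed by −0.77 between genotypes (exact permutation test, p = 0.3), and by −1.29 without WT replicate 1, −0.46 without WT replicate 2 and −0.47 without Adar2-/- replicate 3. miR-298* had 3, 3 and 9 reads in WT and 10, 10 and 7 in Adar2-/- (0.252 ± 0.126 and 0.418 ± 0.122 RPM, SD, n = 3 each; exact permutation test, p = 0.2). The log2 ratio of miR-298 to miR-298* differed by −0.47 (exact permutation test, p = 0.6), by −0.07 with 5 reads added to both counts, and by 0.0047 without WT replicate 1 and 0.23 without Adar2-/- replicate 1, where its sign turned.

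The miRNAs of the Igf2 and H19 region were rare in the libraries, and the genotypes overlapped for each of them. The exact permutation test of 3 libraries against 3 cannot give a p under 0.1 at any depth. miR-483 had 12, 8 and 20 reads in WT and 11, 23 and 39 in Adar2-/-, or 0.722 ± 0.326 and 1.06 ± 0.525 RPM (SD, n = 3 each; exact permutation test, p = 0.4). miR-483* had 21, 10 and 16 reads in WT and 12, 22 and 17 in Adar2-/-, or 0.936 ± 0.662 and 0.762 ± 0.151 RPM (SD, n = 3 each; exact permutation test, p = 0.9). Neither arm of Mir483 dominated, since miR-483 to miR-483* ran from 0.571 to 1.25 in WT and from 0.917 to 2.29 in Adar2-/-, with a difference of 0.63 on the log2 scale (exact permutation test, p = 0.4) that was 0.37 without WT replicate 1 and 0.23 without Adar2-/- replicate 3.

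miR-675-3p had 0, 5 and 3 reads in WT and 1, 0 and 5 in Adar2-/-, and miR-675-5p had 1, 0 and 2 reads in WT and 2, 2 and 2 in Adar2-/-. A count of 0 allows up to 0.241 RPM in WT replicate 1, 0.132 RPM in WT replicate 2 and 0.127 RPM in Adar2-/- replicate 2, which is above the mean level of either arm over the 6 libraries. The exact permutation p was 0.8 for miR-675-3p and 0.3 for miR-675-5p, and no fold is given. Its arm ratio differed by 1.43 (exact permutation test, p = 0.5) and the log2 ratio of miR-675-3p to miR-483 by −1.17 (exact permutation test, p = 0.4), both on 0 to 5 reads of miR-675. The choroid plexus markers, among them miR-204 and miR-211, summed to between 1191 and 2045 RPM in the same libraries.

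A larger group of imprinted miRNAs, those of the Dlk1-Dio3 domain, cut from its maternally expressed noncoding RNAs, gave a second set for comparison. The tables list 109 of them and 68 passed the minimum of 100 reads. edgeR called 0 of the 68 (0% of all 399). At an unadjusted p under 0.05, 2 of the 68 were higher and 0 lower, against 9 higher and 4 lower of all 399. Their median log2 fold change was −0.08, with 30 above 0 and 38 below, against a median of 0.0023 over the 399 miRNAs.

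By the smallest unadjusted p, miR-540-5p (44.1 ± 10.2 RPM in WT and 84.6 ± 30.5 in Adar2-/-, SD, n = 3 each) had a log2 fold change of 0.94 with a standard error of 0.377, and miR-410 had 1.09 with a standard error of 0.480. On the other side miR-495* had −0.69 with a standard error of 0.344 and miR-376a* had −0.72 with a standard error of 0.372. The edgeR adjusted p of all 4 was 0.988.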

How the data were processed

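The authors removed adaptors from 36 bp reads with Cutadapt and mapped them with NextGenMap to miRBase release 16 at 90% identity or more, so reads with a few differing bases, edited ones included, still counted. They deposited 3 tables of raw read counts, each with 1 WT and 1 Adar2-/- library, without normalization. Columns were given to samples by the genotype in the column name and the replicate number of the table. The 12 lines without a miRNA were dropped. RNA of 19 to 25 nucleotides had been cut from a gel and amplified.

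The members and lists were chosen with earlier results of these data known. miRNA numbers picked the members, all were named, the 5 miRNAs most like each tested member were named by Pearson r, and for the Dlk1-Dio3 list the 2 smallest unadjusted p in each direction. Counts were tested with edgeR 4.0.16 (glmQLFit and glmQLFTest, R 4.3.3) on miRNAs that had 100 or more reads in each library, taking all mapped miRNA reads as the library size without a scaling factor, with Benjamini-Hochberg adjustment and a threshold of 0.05. Single values used two-sided exact permutation tests (scipy 1.17.1). Intervals of shares and of RPM are exact (Clopper-Pearson) and, like the limits for 0 reads (3 reads), cover counting error only, since reads are not independent molecules. The methods call the 3 libraries of a genotype biological replicates, and the labels give only their numbers. Alternatives were DESeq2 1.42.0, totals that left out the 5 most abundant miRNAs, TMM factors, lower read minimums, other pseudocounts, a replicate block and libraries left out. Hairpins were folded with RNAfold 2.7.2. Of these procedures, the edgeR and DESeq2 fits were tested on simulated counts.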

Additional observations from a re-analysis of the deposited data

How the results depend on the processing

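Of the settings that kept all libraries, none changed a direction, and 1 count moved, the calls over all miRNAs, which were 1 with DESeq2 against 0. Leaving out a library or a replicate number gave 0 to 18 calls over all miRNAs, 0 to 1 among the 2 tested miR-335 arms and 0 to 3 in the Dlk1-Dio3 domain, with 18, 1 and 3 without replicate 1. Log2 fold changes then ran from 0.70 to 1.93 for miR-335-5p and for miR-335-3p from −0.14 to 0.32. Differences in RPM turned sign in some of these for miR-335-3p (−7.07 to 15.9), miR-298 (−1.0 to 2.75), miR-483* (−0.507 to 0.261) and miR-675-3p (−0.0890 to 0.0674). So did the log2 arm ratios of Mir296 (−1.54 to 0.58), Mir298 (−1.59 to 0.70) and Mir675 (−0.75 to 2.61) and the ratio of miR-675-3p to miR-483 (−2.61 to 0.71). Among single libraries the sign turned without WT replicate 1 (miR-483*, Mir298), WT replicate 2 (Mir296, miR-298, miR-675-3p), Adar2-/- replicate 1 (Mir298), Adar2-/- replicate 2 (miR-675-3p) or Adar2-/- replicate 3 (miR-335-3p, miR-298), and the cause was not tested. Same-numbered libraries did not deviate together (r from −0.08 to −0.0010 over 399 miRNAs), so no pairing was visible in the counts. This check cannot show whether the libraries were paired by design, as each deposited table held 1 WT and 1 Adar2-/- library. A replicate block changed no call, with log2 fold changes of 1.18 for miR-335-5p and 0.13 for miR-335-3p. The other 8 miRNAs missed the minimum of 100 reads and were in no fit with a library left out or with a block. Depth limits miR-675 to 0 to 5 reads per library and miR-483 and miR-483* to 8 to 39. Geometric means and ratios with 0 added reads were not run for miR-675.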

Other observations

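After the values were seen, each of the 608 miRNAs that had 10 or more reads in each library was compared in WT replicate 2 with its median over the other 5 libraries. miR-296-5p had the highest ratio of all, at 7.09, followed by the muscle miRNAs miR-133b at 5.44 and miR-133a at 3.48, miR-1249 at 3.16 and miR-152* at 3.03, the last of which was higher in another library (27.7 RPM against 19.8 RPM). In WT replicate 2 miR-133a stood at 273 RPM against 47.6 to 172 RPM elsewhere, and miR-133b at 109 RPM against 18.4 to 67.6 RPM.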
